A study of Mus musculus with 61 samples.

Results

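The genes described here are those of the mitochondrial route to caspase activation: Apaf1, Casp9, Cycs, Casp6, Casp2, Xiap and Diablo. They were taken by name, with earlier results of these data known, and 7 of 7 had a row among the 23927 gene rows of the count table. The table covers 61 libraries of 1 cell each from ovaries of wild-type (WT) CD-1 mice, an outbred stock, at postnatal day 5. Mice had received solvent (control) or doxorubicin, a DNA-damaging anti-cancer drug, by intraperitoneal injection 6 hours before collection. There were 16 control oocytes, 16 doxorubicin oocytes, 16 control granulosa cells and 13 doxorubicin granulosa cells. The dose is written as 10 mg/kb in the series text, which is not a dose unit. The labels tie no cell to an animal, litter or culture. Each group was therefore treated as a single sample (n = 1), and no difference given here has a replicate check or a p-value.

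In this route, damaged or stressed cells release cytochrome c, encoded by Cycs, from the space between the mitochondrial membranes. Cytochrome c binds APAF1, which assembles into the apoptosome, a wheel-shaped platform that activates the initiator caspase CASP9. CASP9 then switches on executioner caspases, of which CASP6 is a member. XIAP blocks caspases by binding them, and DIABLO, released together with cytochrome c, displaces XIAP. CASP2 is an initiator caspase that is activated on a separate platform. In the ovary, loss of oocytes from small follicles after DNA damage is known to run through cell death of this mitochondrial type, downstream of p63 and p53. Transcript levels were measured here, and the activation of caspases takes place on the protein.

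The level of a gene in a cell is given as CPM, its counts scaled to the total counts of that cell, and the level of a group as the summed counts of its cells over their summed total. CPM is thus a share of a library, and the amount of RNA in a cell was not measured. Totals per cell ran from 6834594 to 31262609. Group medians lay between 10826423 in doxorubicin granulosa cells and 11478173 in control granulosa cells. A fixed list of 19 oocyte markers summed to between 18110 and 66691 CPM in every oocyte, above the granulosa list of the same cell in 32 of 32 oocytes. Among granulosa libraries the oocyte list exceeded the 19 granulosa markers in 6 of 16 control and 8 of 13 doxorubicin cells. A list of 8 stroma markers summed to 1.31 to 13316 CPM in control granulosa libraries, with a median of 815 CPM. In doxorubicin granulosa libraries it summed to 0.37 to 7961 CPM, with a median of 688 CPM. This sum exceeded the granulosa markers in control granulosa cells 2, 8, 13, 14 and 16 and in doxorubicin granulosa cells 6 and 13. The oocyte list had a median of 1752 CPM over control and of 9643 CPM over doxorubicin granulosa libraries, and Oosp1 was its 1 gene at 0 in all control granulosa cells. Granulosa markers reached 3213, 2826 and 2051 CPM in doxorubicin oocytes 9, 11 and 12, against at most 793 CPM in a control oocyte. Doxorubicin granulosa cell 15 carried 33378 CPM of blood and immune markers. Cdkn1a, a p53 target that serves here as the reference for a damage response, had an oocyte level of 15.7 CPM without and 130 CPM with doxorubicin.

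All 7 genes are protein-coding and lie apart from each other in the mouse genome, build mm10 (GRCm38, GENCODE M21). Apaf1 spans chromosome 10 from 90989311 to 91082770 on the minus strand. Casp9 lies on chromosome 4 (141793612 to 141815976, plus strand) and Casp6 on chromosome 3 (129901425 to 129914103, plus strand). Casp2 (42264985 to 42282508, plus strand) and Cycs (50562563 to 50566538, minus strand) are both on chromosome 6. Diablo is on chromosome 5 (123509765 to 123524176, minus strand) and Xiap on chromosome X (42059679 to 42109656, plus strand). Some reads could be assigned to more than 1 gene. Cycs shares 847 stretches of 50 bases with the retrogene Gm10053, which was counted at 3.11 to 12.8 CPM in the 4 groups. Diablo shares 1100 such stretches with Gm49027, a gene on the same strand counted at no more than 1.35 CPM in any group, and it overlaps B3gnt4 on the opposite strand (0.01 to 15.2 CPM). Casp9 overlaps Cela2a (0 to 15.1 CPM) on the opposite strand. Whether strand was used in counting is not given in the sources used here.

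The promoters of Casp6 and Diablo are shown because these genes differed in the largest share of cell pairs between the oocyte groups. They are RefSeq windows on GRCm38.p6 from 250 bases before to 50 bases after the annotated start, for Casp6 chr3:129901165-129901464 on the plus strand and for Diablo chr5:123524115-123524414 on the minus strand. Both are printed 5′ to 3′ with GC boxes (GGGCGG on either strand) in capitals.
Casp6: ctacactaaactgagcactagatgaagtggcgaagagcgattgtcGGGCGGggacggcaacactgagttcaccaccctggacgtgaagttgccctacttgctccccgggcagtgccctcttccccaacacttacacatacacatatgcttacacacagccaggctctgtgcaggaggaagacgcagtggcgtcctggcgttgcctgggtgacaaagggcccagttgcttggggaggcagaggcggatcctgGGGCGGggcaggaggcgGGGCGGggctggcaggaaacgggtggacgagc
Diablo: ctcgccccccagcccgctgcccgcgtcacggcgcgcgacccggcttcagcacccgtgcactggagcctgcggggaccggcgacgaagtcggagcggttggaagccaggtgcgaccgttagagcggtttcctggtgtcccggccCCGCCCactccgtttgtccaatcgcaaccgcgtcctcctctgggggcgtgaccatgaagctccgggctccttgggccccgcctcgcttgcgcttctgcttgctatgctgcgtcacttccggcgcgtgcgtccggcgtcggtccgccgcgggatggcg
Casp6 has 3 GC boxes and Diablo has 1 in this window, and each of the 7 genes has at least 1 promoter window with a match. Of the 9 windows of these genes, only window 3 of Xiap has none. A GC box was found in 35.7% of all 32851 promoter windows of 300 bases. The decamer of the p53 response element, by its consensus, was found in 8.36% of all windows and in 0 of the 9 windows of these genes. The AP-1 site TGANTCA, which JNK-driven transcription factors bind, was found in 7.81% of all windows and likewise in 0 of 9. TATAAA was present in 13.6% of all windows and in 1 of the 3 windows of Xiap, on the minus strand. All motifs were searched on both strands with no mismatch, and matches of different motifs that overlap were each counted.

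**Figure D1:**
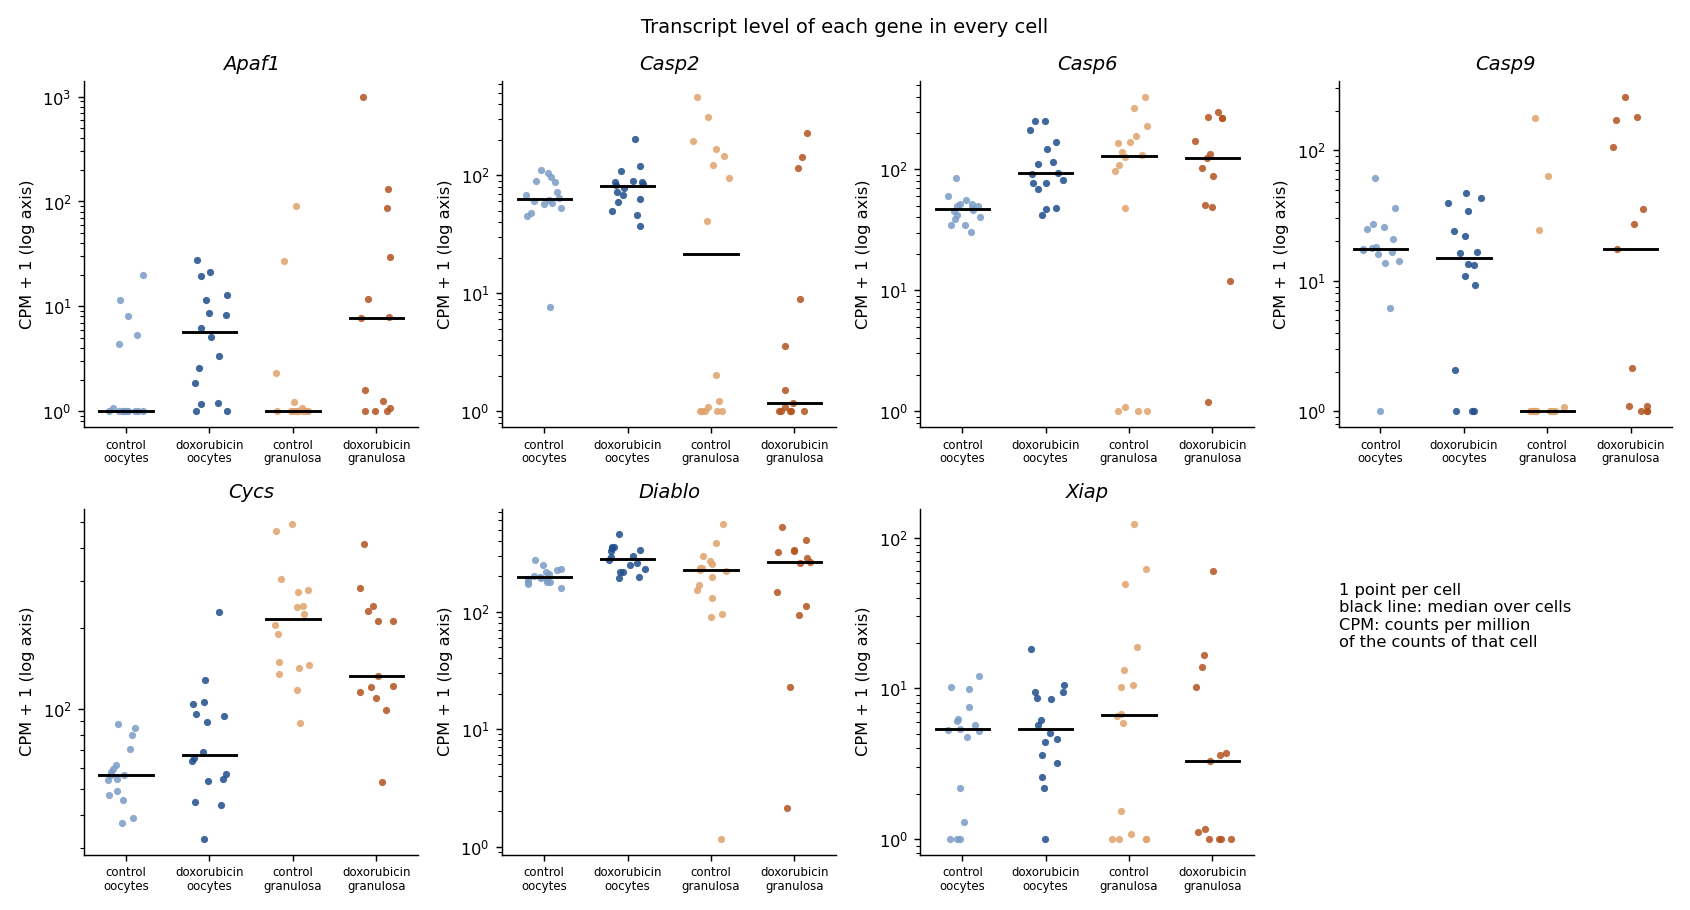
Level of each of the 7 genes in every cell, as CPM + 1 on a log axis, with 1 point per cell and a black line at the median of the group. Casp6 and Diablo points of doxorubicin oocytes sit above most control oocytes, while granulosa cells spread widely for Casp2 (0 to 462 CPM), Casp6 and Casp9.

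In control oocytes Diablo and Casp6 had the most transcript for their length, followed by Casp2 and Cycs at similar levels. Per kilobase of the longest coding transcript, Diablo stood at 77.6 CPM, Casp6 at 32.5, Casp2 at 19.8 and Cycs at 18.2. Casp9, the initiator of the apoptosome, was lower at 5.09 CPM per kilobase. Xiap, at 0.72, and Apaf1, at 0.38 CPM per kilobase, were the lowest. The platform protein of the apoptosome was thus the scarcest of these transcripts in undamaged oocytes. The coefficient of variation over 16 control oocytes was 0.15 for Diablo, 0.26 for Cycs and 0.27 for Casp6, against medians of 0.26, 0.40 and 0.43 over the genes within 2-fold of each gene's level. For Casp2 it was 0.39 against 0.37, and for Casp9 0.68 against 0.60.

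Over all cells, doxorubicin oocytes had higher Casp6, Diablo and Apaf1 levels, while Casp9 and Xiap stayed close to the control level. Casp6 was 2.53-fold higher, Apaf1 2.96-fold higher from a very low level, and Diablo 1.42-fold higher. This split depended on the cells kept. Among oocytes under 200 CPM of granulosa markers the log2 ratio was 0.66 for Xiap, 0.57 for Casp2 and 0.52 for Diablo. Of the 7 genes, 2 were at least 2-fold higher and 0 at least 2-fold lower. Of 11119 genes that reached 5 CPM in an oocyte group, 6.3% were at least 2-fold higher and 2.45% at least 2-fold lower, or 8.75% in either direction. The median log2 ratio was 0.49 over the 7 genes and 0.01 over all genes. Groups of cells were also compared pair by pair, as the share of the 256 pairs of 1 doxorubicin and 1 control oocyte in which the doxorubicin oocyte had the higher CPM. That share was at least 75% for 3 of the 7 genes and for 4.02% of all genes. It was 25% or less for 0 of the 7 and for 3.32% of all genes. Because the 7 genes were chosen with earlier results of these data known, setting them beside all genes is a description, not a test. Counting intervals, which are 95% intervals for counting error only, left out 0 for 7 of 7 genes and for 89.3% of all genes. In the 2 comparisons with granulosa cells they left out 0 for 96.3% and 98.0% of all genes, so at this depth they separate few genes from the rest.

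Casp6, the executioner caspase, ranged in control oocytes from 29.5 CPM over a median of 46.1 to 83.3 CPM. In doxorubicin oocytes it ranged from 41.0 over 91.6 to 252 CPM. The groups overlapped, but 9 of 16 doxorubicin oocytes lay above the highest control oocyte and none below the lowest. Group levels were 47.3 and 119 CPM, a log2 ratio of 1.34 (counting interval 1.30 to 1.37), which ran from 1.2 (without doxorubicin oocyte 5) to 1.41 when any 1 cell was left out. The doxorubicin oocyte was the higher in 88.3% of pairs, a share reached by 0.25% of all genes. The spread between cells widened too, with a coefficient of variation of 0.60 after doxorubicin against 0.27 in controls. Without doxorubicin oocyte 4, whose raw data are stated to be lost, the log2 ratio was 1.21. Among the 11 doxorubicin and 10 control oocytes under 200 CPM of granulosa markers it was 1.17.

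Diablo, the antagonist of XIAP, had the tightest distribution. Control oocytes lay between 159 and 273 CPM with a median of 194.5 CPM. Doxorubicin oocytes lay between 191 and 461 CPM with a median of 282 CPM. Again 9 of 16 doxorubicin oocytes were above every control oocyte, and the lowest doxorubicin oocyte was above the lowest control oocyte. Group levels of 201 and 286 CPM gave a log2 ratio of 0.51 (0.49 to 0.53), below the 2-fold mark. This ratio moved least of the 7 when single cells were left out, from 0.45 to 0.54, and was 0.52 among oocytes low in granulosa markers. The pair share was 88.3%, as for Casp6. Both genes were above the highest control in 6 of 16 doxorubicin oocytes, and at least 1 of them in 12 of 16.

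**Figure D2:**
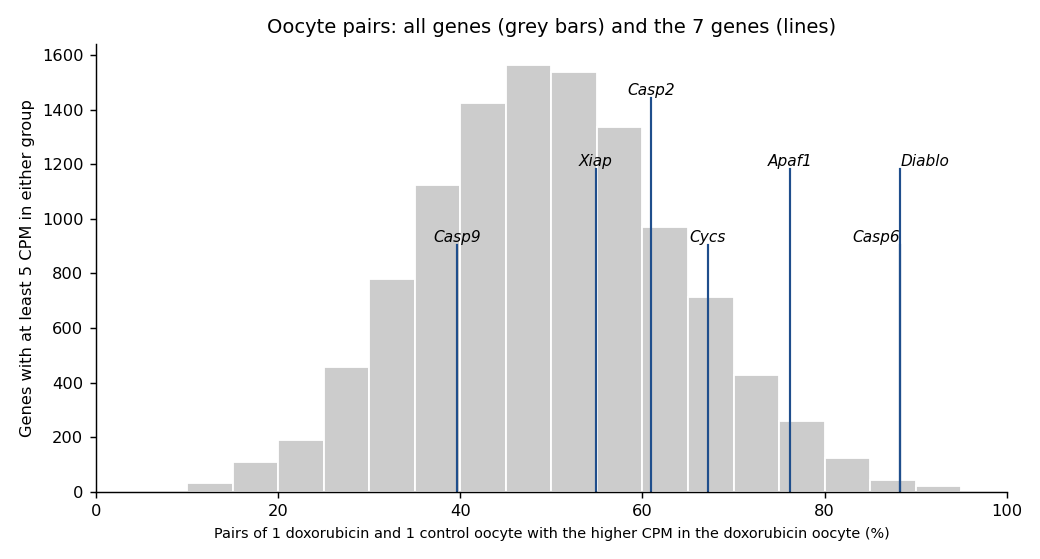
Share of pairs of 1 doxorubicin and 1 control oocyte with the higher CPM in the doxorubicin oocyte. Grey bars count all 11119 genes with at least 5 CPM in either oocyte group, and lines mark the 7 genes, with Casp6 and Diablo at 88.3% and Casp9 at 39.6%.

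Apaf1, the apoptosome scaffold, was at or near 0 in most control oocytes. Its lowest value was 0 CPM, its median 0 CPM and its highest 18.8 CPM, in control oocyte 4, which held 42.5% of the Apaf1 reads of the group. In doxorubicin oocytes the lowest value was 0, the median 4.63 and the highest 26.8 CPM. At least 5 reads were found in 5 of 16 control and 12 of 16 doxorubicin oocytes, with exact binomial intervals of 11.02% to 58.7% and 47.6% to 92.7%. Here and below, such intervals treat cells as independent draws, which are not replicates of a treatment. After each cell was thinned to 5000000 counts these were 5 and 11 of 16. Without thinning, genes within 2-fold of the Apaf1 level had at least 5 reads in a median of 50% of control and 75% of doxorubicin oocytes. The group level of 2.49 CPM in controls and 7.37 CPM after doxorubicin gave a log2 ratio of 1.57 (1.41 to 1.72). Leaving out control oocyte 4 raised the ratio to 2.28, and leaving out doxorubicin oocyte 13 lowered it to 1.30. Doxorubicin was the higher in 76.2% of pairs, a share reached by 3.44% of all genes, but only 2 of 16 doxorubicin oocytes were above the highest control oocyte.

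Casp9, the caspase that APAF1 activates, did not share the higher level of Apaf1. Control oocytes ranged from 0 over 16.6 to 60.6 CPM and doxorubicin oocytes from 0 over 13.9 to 45.8 CPM, so the ranges nearly coincided. The log2 ratio was -0.14 (-0.21 to -0.07), and doxorubicin was the higher in 39.6% of pairs. The ratio was 0.08 among oocytes low in granulosa markers and -0.22 where stroma markers were low too, so its direction depended on the cells kept. At least 5 reads were found in 15 of 16 control and 13 of 16 doxorubicin oocytes. Cycs, the gene of cytochrome c, ranged from 36.5 over 55.7 to 86.6 CPM in control and from 31.6 over 66.1 to 228 CPM in doxorubicin oocytes. In 7 of 16 doxorubicin oocytes it exceeded the highest control, and in 1 it was below the lowest. The log2 ratio was 0.49 (0.45 to 0.52) and the pair share 67.2%. Without doxorubicin oocyte 9 the ratio was 0.34. It was 0.30 among oocytes low in granulosa markers and 0.12 among the 9 doxorubicin and 9 control oocytes low in granulosa and stroma markers alike. The 8 stroma markers summed to 0.83 to 917 CPM in control and 0.32 to 1882 CPM in doxorubicin oocytes. Over doxorubicin oocytes the Spearman correlation of Cycs with this sum was 0.66 (n = 16). The part of these transcripts in the Cycs ratio was not tested.

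Over all cells, the levels of Casp2 and Xiap lay close together in the oocyte groups. Casp2 ranged from 6.63 over 61.9 to 110 CPM in control and from 35.97 over 79.5 to 203 CPM in doxorubicin oocytes. Its log2 ratio was 0.24 (0.20 to 0.27), it was 0.11 without doxorubicin oocyte 14, and 2 of 16 doxorubicin oocytes were above the highest control. Among oocytes low in granulosa markers the Casp2 ratio was 0.57. Xiap, the caspase inhibitor, ranged from 0 over 4.35 to 11.004 CPM in control and from 0 over 4.39 to 17.3 CPM in doxorubicin oocytes. Its log2 ratio of 0.17 (0.04 to 0.30) became -0.05 without doxorubicin oocyte 8 and 0.55 without control oocyte 16, and it was 0.66 among oocytes low in granulosa markers. The medians of the groups were nearly the same, and the pair share was 54.9%.

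**Figure D3:**
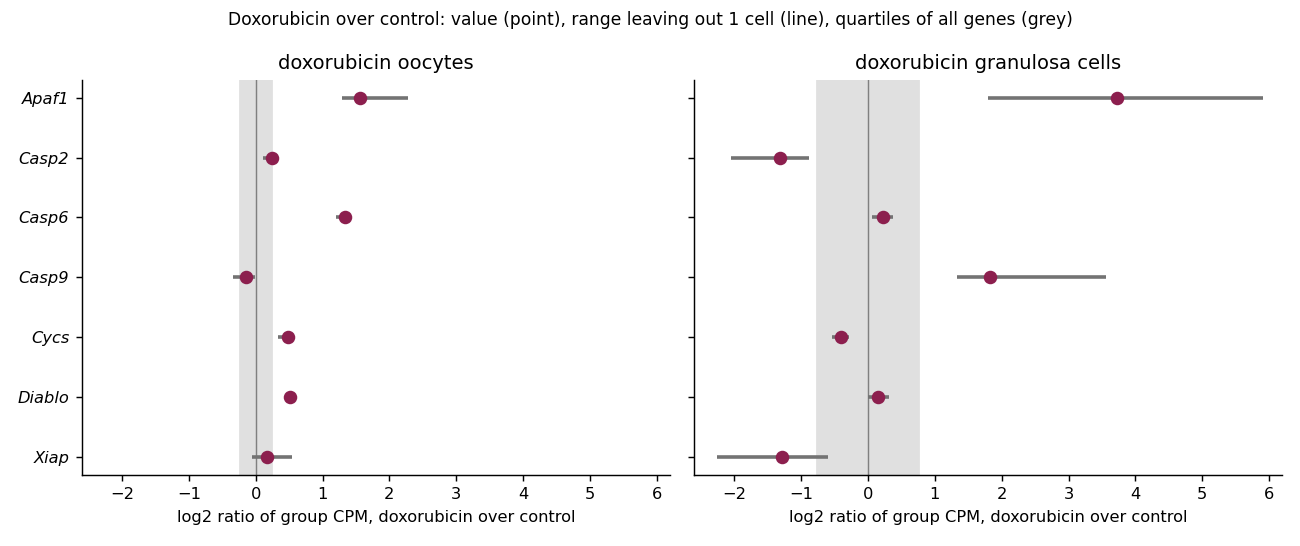
Log2 ratio of doxorubicin over control group CPM for each gene, in oocytes (left) and granulosa cells (right). Points are the ratios over all cells, lines span the values when any 1 cell is left out, and the grey band holds the middle quartiles of all genes, which is wider in granulosa cells (-0.76 to 0.76) than in oocytes (-0.24 to 0.25).

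Among doxorubicin oocytes, Casp6 followed Cdkn1a from cell to cell more closely than the other genes did. The Spearman correlation with Cdkn1a over 16 doxorubicin oocytes was 0.67 for Casp6, 0.26 for Cycs, 0.06 for Casp9, -0.06 for Xiap, -0.09 for Diablo, -0.16 for Casp2 and -0.47 for Apaf1. Over control oocytes the value for Casp6 was 0.34. These correlations describe 16 cells whose values share a library and its total. Granulosa markers moved with both genes, since their sum had a correlation of 0.46 with Casp6 and 0.62 with Cdkn1a over the same cells. Among the 11 doxorubicin oocytes under 200 CPM of those markers, Casp6 and Cdkn1a had a correlation of 0.59. Diablo was also high in some oocytes with little Cdkn1a. Doxorubicin oocyte 7, with 7.90 CPM of Cdkn1a, had 326 CPM of Diablo, and doxorubicin oocyte 5, with 289 CPM of Cdkn1a, also had 289 CPM of Diablo. Casp6 in these 2 cells was 76.4 and 252 CPM. Between the 7 genes themselves the correlations over doxorubicin oocytes lay between -0.62, for Casp2 with Diablo, and 0.36, for Casp9 with Xiap.

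**Figure D4:**
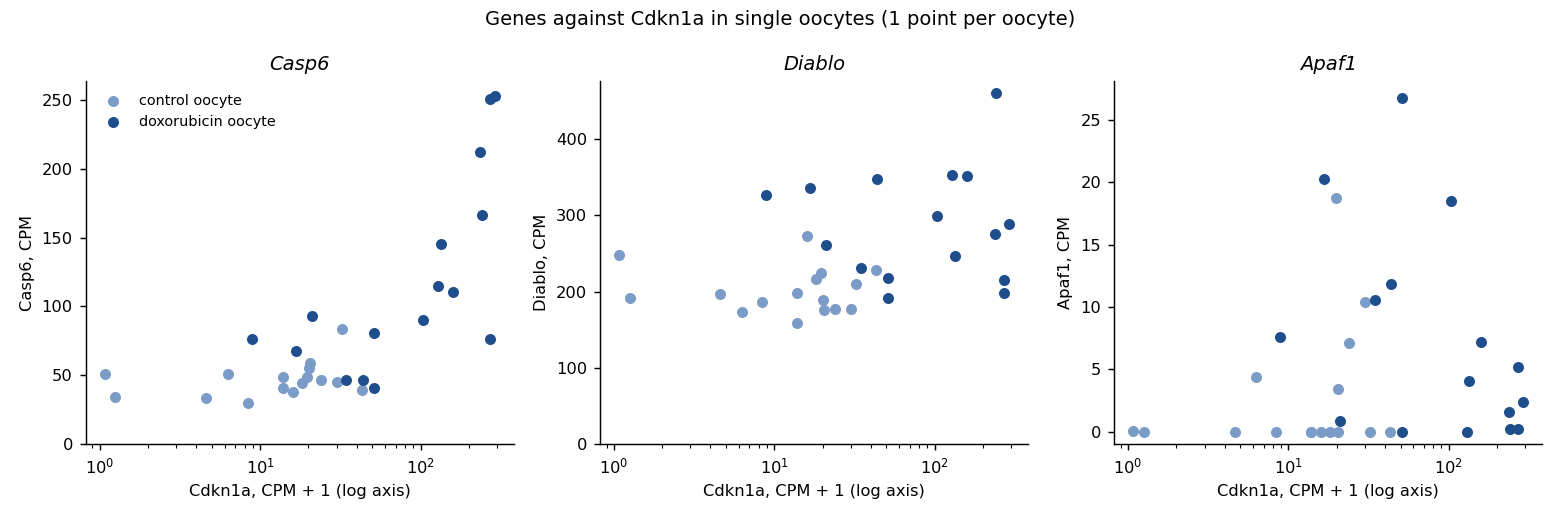
Casp6, Diablo and Apaf1 in CPM against Cdkn1a as CPM + 1 on a log axis, with 1 point per oocyte. The highest Casp6 values, up to 252 CPM, are in doxorubicin oocytes with high Cdkn1a, whereas Diablo values above the controls occur at low and high Cdkn1a.

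By group sums, doxorubicin granulosa cells had higher Apaf1 and Casp9 and lower Casp2 and Xiap levels than controls. The ratios of Casp6 and Diablo were close to 0 on the log2 scale. Of the 7 genes 2 were at least 2-fold higher and 2 at least 2-fold lower, where 20.6% and 20% of 12194 genes passed the same marks, or 40.6% in either direction. In the 5 doxorubicin and 10 control cells whose granulosa markers summed above their oocyte markers, 2 genes were at least 2-fold higher and 0 at least 2-fold lower. The share of all genes past these marks was not counted for those cells. They are called below the cells where granulosa markers prevailed, although stroma and blood markers were not part of this choice. Doxorubicin granulosa cell 13 among them had 7961 CPM of stroma against 1985 CPM of granulosa markers. Cell 15 of that group had 33378 CPM of blood and immune against 8565 CPM of granulosa markers. At least 75% of the 208 pairs of cells were higher after doxorubicin for 2 of 7 genes and for 2.82% of all genes, and 0 of 7 had a share of 25% or less (1.08% of all genes). The median log2 ratio of the 7 genes was 0.14, and that of all genes was -0.03. Granulosa libraries were far more uneven than oocytes. Between 1 and 6 of the 7 genes had at least 5 reads in a control granulosa cell, with a median of 4.5, against 5 to 7 in every oocyte of either group. Other genes were uneven too. In control granulosa cells the coefficient of variation was 1.41 for Casp2, 2.77 for Casp9 and 3.12 for Apaf1. Genes within 2-fold of their levels had medians of 1.15, 1.98 and 2.72. Those genes had at least 5 reads in a median of 75%, 37.5% and 25% of cells. Over control granulosa cells the Spearman correlation of the 7 genes with the stroma marker sum ran from -0.63 (Xiap) to -0.28 (Apaf1 and Casp6). Over doxorubicin granulosa cells it ran from -0.60 (Cycs) to 0.38 (Casp2). The part of stroma-type libraries in the granulosa values was not tested.

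Apaf1 in control granulosa cells ran from 0 over a median of 0 to 88.9 CPM, and in doxorubicin granulosa cells from 0 over 6.67 to 996 CPM. At least 5 reads were present in 3 of 16 control and 8 of 13 doxorubicin cells, with exact binomial intervals of 4.05% to 45.6% and 31.6% to 86.1%. After thinning these were 2 of 16 and 7 of 13. Group levels were 6.73 and 89.0 CPM, a log2 ratio of 3.72 (3.64 to 3.81). Doxorubicin granulosa cell 1 alone held 75.4% of the doxorubicin reads, and control granulosa cell 11 held 79.4% of the control reads. The ratio was 1.80 without the first of these cells and 5.92 without the second. That doxorubicin cell also had 47447 CPM of oocyte markers and 1095 CPM of granulosa markers. Among granulosa cells whose granulosa markers prevailed (5 doxorubicin and 10 control cells) the ratio was 1.33. The pair share of 76.2% was the same as in oocytes.

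Casp9 ran from 0 over 0 to 174 CPM in control and from 0 over 16.6 to 256 CPM in doxorubicin granulosa cells. At least 5 reads were found in 3 of 16 control cells and 8 of 13 doxorubicin cells. The log2 ratio was 1.82 (1.76 to 1.88), with a pair share of 76.9%, which 1.98% of all genes reached. Control granulosa cell 6 held 72.3% of the control reads, and without it the ratio was 3.56. Without doxorubicin granulosa cell 14 it was 1.33, and it was 2.19 where granulosa markers prevailed. Over doxorubicin granulosa cells Casp9 had a Spearman correlation of 0.65 with the granulosa marker sum and of -0.52 with the oocyte marker sum (n = 13). For Casp9 and for Apaf1, 2 of 13 doxorubicin cells exceeded all control cells. All 3 parts of the apoptosome, Apaf1, Casp9 and Cycs, had at least 5 reads in 1 of 16 control and 6 of 13 doxorubicin granulosa cells (46.2%, interval 19.2% to 74.9%). In oocytes the same was true of 4 of 16 control and 9 of 16 doxorubicin cells. Cycs had at least 5 reads in every cell, so these counts follow Apaf1 and Casp9 alone. Genes within 2-fold of the Apaf1 level had at least 5 reads in a median of 25% of control and 76.9% of doxorubicin granulosa cells. In oocytes these medians were 50% and 75%. Joint detection was not counted for other genes.

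Casp2 in control granulosa cells ran from 0 over 20.6 to 462 CPM and in doxorubicin cells from 0 over 0.16 to 229 CPM. In 8 of 16 control cells Casp2 was at most 1.02 CPM and in the others at least 40.1 CPM. In 10 of 13 doxorubicin cells it was at most 7.90 CPM and in the others at least 115 CPM. At least 5 reads were found in 9 of 16 control and 6 of 13 doxorubicin cells. The log2 ratio was -1.32 (-1.36 to -1.27) but -0.11 where granulosa markers prevailed, and it was -0.89 without control granulosa cell 4 and -2.04 without doxorubicin granulosa cell 16. Over doxorubicin granulosa cells Casp2 had a correlation of -0.55 with the oocyte marker sum. Xiap ran from 0 over 5.67 to 121 CPM in control and from 0 over 2.30 to 58.9 CPM in doxorubicin granulosa cells. Its log2 ratio of -1.28 (-1.38 to -1.18) was -0.59 without control granulosa cell 5 and -2.26 without doxorubicin granulosa cell 15, the library rich in blood markers. The doxorubicin cell was the higher in 39.7% of pairs for Casp2 and 40.4% for Xiap. The correlation of Xiap with the oocyte marker sum was -0.70 over doxorubicin granulosa cells, whose oocyte marker sums were higher than in the controls. The part of this difference in the Casp2 and Xiap ratios was not tested.

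At least 5 reads of Cycs were found in every granulosa cell, of Diablo in 15 of 16 control and 13 of 13 doxorubicin cells, and of Casp6 in 12 of 16 and 12 of 13. Casp6 ran from 0 over 128 to 398 CPM in control and from 0.18 over 123 to 296 CPM in doxorubicin cells, giving a log2 ratio of 0.22 (0.19 to 0.25), which was -0.22 where granulosa markers prevailed. Diablo ran from 0.16 over 223 to 552 CPM and from 1.14 over 262 to 522 CPM, with a ratio of 0.14 (0.12 to 0.16) that was 0.00 without doxorubicin granulosa cell 2. No doxorubicin cell exceeded all control cells for either gene. Cycs ran from 87.6 over 215 to 488 CPM in control and from 52.0 over 132 to 413 CPM in doxorubicin cells. Its ratio of -0.40 (-0.42 to -0.37) stayed below 0 when any 1 cell was left out and was -0.79 where granulosa markers prevailed. In 34.1% of pairs Cycs was higher in the doxorubicin cell.

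**Figure D5:**
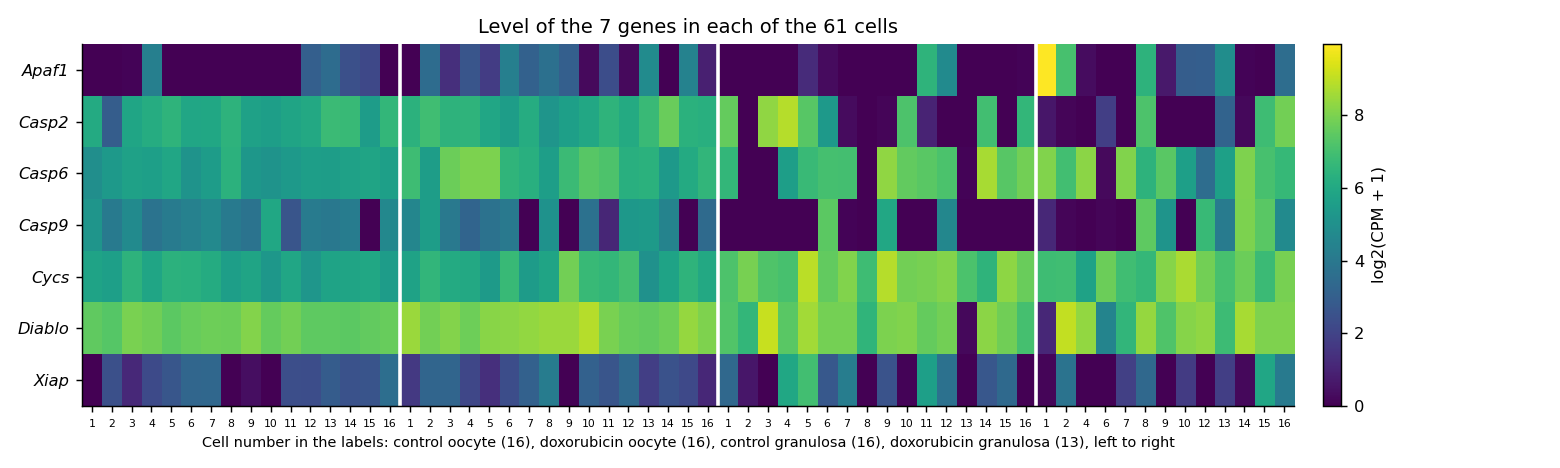
Level of the 7 genes in each of the 61 cells as log2(CPM + 1), with cells in the order of their label numbers and white lines between the 4 groups. Casp2, Casp6, Cycs and Diablo are present throughout the oocytes, whereas in granulosa cells Apaf1, Casp2, Casp9 and Xiap are near 0 in some cells and high in others.

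Between the cell types without drug, Cycs was the gene that set oocytes and granulosa cells apart. Every control granulosa cell, from 87.6 CPM upwards, had a higher Cycs CPM than every control oocyte, none of which exceeded 86.6 CPM. The log2 ratio of oocytes over granulosa cells was -2.02 (-2.05 to -1.99). Ranges did not overlap for 1 of the 7 genes and for 3.7% of 12373 genes. These control cells are the same as in the comparisons above. Casp6 was lower in control oocytes by a log2 ratio of -1.38 (-1.41 to -1.34), with the oocyte higher in 28.1% of pairs. In all, 4 of 7 genes were at least 2-fold lower in oocytes and 0 at least 2-fold higher, where 31.3% and 29.0% of all genes were, or 60.3% in either direction. The oocyte was the higher in at least 75% of pairs for 1 of 7 genes, Casp9, and in 25% or less for 1, Cycs, against 40.2% and 8.28% of all genes. The other 2 of these were Xiap at -1.89 and Apaf1 at -1.44. Xiap was at -1.2 without control granulosa cell 5, and Apaf1 was 0.76, the other direction, without control granulosa cell 11. For Casp2 and Casp9 the value depended on how cells were combined. Casp2 had at least 5 reads in 16 of 16 control oocytes and 9 of 16 control granulosa cells, and Casp9 in 15 of 16 and 3 of 16. The Casp2 ratio of sums was -0.47 (-0.04 without control granulosa cell 4), but the difference between the cells' median log2(CPM + 1) was 2.79. For Casp9 these values were 0.15 and 4.14, and its ratio of sums was 1.89 without control granulosa cell 6. Over all genes the oocyte was the higher in a median of 67.6% of pairs. The difference of the cells' medians was not taken over all genes. Diablo differed by -0.11, and by 0.06 without control granulosa cell 3.

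By group level, Apaf1 was highest in doxorubicin granulosa cells (89.0 CPM), followed by doxorubicin oocytes (7.37), control granulosa cells (6.73) and control oocytes (2.49), and the ranges over cells overlapped between all neighbours in this order. Casp6 was highest in doxorubicin granulosa cells (143 CPM), followed by control granulosa cells (123), doxorubicin oocytes (119) and control oocytes (47.3). After doxorubicin the Casp6 level of oocytes was thus near that of control granulosa cells. For Diablo the order was doxorubicin oocytes (286), doxorubicin granulosa cells (240), control granulosa cells (217) and control oocytes (201). For Cycs it was control granulosa cells (231), doxorubicin granulosa cells (175), doxorubicin oocytes (79.7) and control oocytes (56.8).

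The genes whose level over all 61 cells was most like that of each gene were ranked by Pearson correlation of log2(CPM + 1) among 13250 genes. For Cycs these were its retrogene Gm10053 (0.943), Cdk4 (0.854) and Ppia (0.853). Casp2 was most like Prdm4 (0.838), Thoc5 (0.77) and Ncaph (0.745). Diablo came closest to Bcas2 (0.815), Gemin7 (0.814) and Ilf2 (0.777), and Casp6 to Mta3 (0.777), Eif4a2 (0.769) and Adgrg1 (0.732). For Casp9 the closest gene was Qsox2 (0.618), for Xiap it was Fndc5 (0.592) and for Apaf1 it was Spesp1 (0.58). These values describe cells of 2 types and 2 treatments together, which share their library totals.

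Other genes of the route were taken from a list of 43, also chosen with earlier results of these data known, of which 38 had a row. In oocytes 29 had at least 5 CPM in either group. Of these 3 were at least 2-fold higher after doxorubicin (6.3% of all genes), 0 were at least 2-fold lower (2.45%), and their median log2 ratio was 0.04. From the cells' medians 3 were higher and 2 lower, and among oocytes low in granulosa and stroma markers 2 and 2. Shares of all genes were not counted for these settings. The higher genes were Pidd1 (log2 ratio 1.75), Naip1 (1.65) and Bok (1.17). Pidd1 encodes the scaffold of the platform that activates CASP2, and it went from 7.46 to 25.1 CPM. Naip1 is a member of the inhibitor of apoptosis family, and Bok is a BAX relative. Naip1 belongs to a family of similar genes, so its reads could be split between copies. Pidd1 stood at 1.14 with doxorubicin oocyte 4 left out and at 2.70 with control oocyte 16 left out. Naip1 was at 2.40 without control oocyte 8, at 1.08 among oocytes low in granulosa markers and at 0.91, below the 2-fold mark, where stroma markers were low too. Bok was at 0.37 without doxorubicin oocyte 12, at 0.15 among oocytes low in granulosa markers and at -1.64 among oocytes low in granulosa and stroma markers. Birc5, which encodes survivin, an inhibitor of apoptosis family member that also acts in cell division, had a log2 ratio of 0.54 and a pair share of 88.3%. It was the only 1 of the 29 with a share of at least 75%, which 4.02% of all genes reached, and it is named after its value was seen. None of the 11 caspase substrates passed the 2-fold mark.

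In granulosa cells 31 genes of that list had at least 5 CPM in either group, and 7 were at least 2-fold higher and 3 at least 2-fold lower after doxorubicin, where 20.6% and 20% of all genes were. Their median was -0.13. The split was 6 higher and 8 lower from the cells' medians, 5 and 5 where granulosa markers prevailed, and 6 and 6 without the cell rich in blood markers. Shares of all genes were not counted for these settings. Bax, a pore-forming protein of the mitochondrial outer membrane, had a log2 ratio of 1.45, with group levels of 93.4 and 256 CPM. It was higher in 91.3% of pairs, a share reached by 0.10% of all genes, and in 7 of 13 doxorubicin cells it exceeded all controls. Aven, an inhibitor of APAF1 function, had a ratio of 2.36, which was 0.61 where granulosa markers prevailed. Pidd1 had no read in control granulosa cells and 5.56 CPM in doxorubicin cells. Against a floor of 3 counts over the group its log2 ratio was 8.38, and 7.22 without doxorubicin granulosa cell 13. The counting interval of this ratio started at 6.83. Pidd1 exceeded all control cells in 6 of 13 doxorubicin cells, with a pair share of 73.1%, which 3.84% of all genes reached. Endog, a mitochondrial nuclease, stood at 1.63, Xaf1, an antagonist of XIAP, at 1.14, Casp8, the initiator at death receptors, at 1.02, and Panx1, a membrane channel cut by caspases, at 1.01. Endog was at 0.91 without doxorubicin granulosa cell 9 and at -0.73 where granulosa markers prevailed. Xaf1 was at 0.54 without cell 10 of that group and at -0.26 where granulosa markers prevailed. Casp8 was at 0.72 without cell 4 and at 0.00 where granulosa markers prevailed, and Panx1 was at 0.20 without cell 16. The lower genes were Dffa, the inhibitor of the apoptotic nuclease (-2.45), Bok (-1.67) and Hccs, which attaches heme to cytochrome c (-1.08). Hccs was at -0.27 without control granulosa cell 3 and at -2.24 without doxorubicin granulosa cell 9, while Dffa was at -4.74 without doxorubicin granulosa cell 13, at -1.53 without control granulosa cell 7 and at 0.00 from the cells' medians. Bok kept its direction with any 1 cell left out, from -2.27 to -1.54.

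Between control oocytes and control granulosa cells 32 genes of the list had at least 5 CPM, of which 10 were at least 2-fold higher and 10 at least 2-fold lower in oocytes, where 29.0% and 31.3% of all genes were. Their median log2 ratio was 0.17. From the cells' medians 18 were higher and 2 lower, with a median of 2.28. No share of all genes was counted for the cells' medians. Over all genes the oocyte was the higher in a median of 67.6% of pairs. Genes with a count numbered 11712 to 14551 per control oocyte and 6627 to 10544 per control granulosa cell. Oocytes had higher levels of Pidd1 (8.80 on the log2 scale against the same floor, and 7.85 without control oocyte 16), Aven (3.06), Cyct (2.90), Bid (1.88), Panx1 (1.52), Opa1 (1.47), Birc5 (1.43), Hccs (1.39), Rock1 (1.10) and Dffa (1.03). The counting interval of Pidd1 started at 7.25. Pidd1 exceeded all control granulosa cells in 7 of 16 control oocytes, and its pair share of 71.9% was reached by 44.7% of all genes. Cyct, a testis-type cytochrome c gene, had 124 reads in the granulosa group and was at 8.17 without control granulosa cell 4. Left without 1 granulosa cell, Bid reached 2.86 (cell 12), Panx1 2.42 (cell 6), Hccs 2.19 (cell 3) and Dffa 1.96 (cell 7). Among the genes lower in oocytes were Bok (-5.03), Casp12 (-4.94), Xaf1 (-4.09), Casp8 (-3.89), Htra2 (-2.22), Lmnb1 (-1.84), Cradd (-1.12), Acin1 (-1.07) and Birc6 (-1.01). Xaf1 was at -2.71 without control granulosa cell 9 and -5.43 without control oocyte 5, and Lmnb1 at -1.18 without control granulosa cell 6. Birc6 (-0.77, cell 10), Cradd (-0.80, cell 14) and Acin1 (-0.60, cell 8) did not reach the 2-fold mark without 1 control granulosa cell. Casp8 and Casp12 were thus lower in oocytes as sums. The oocyte was the higher in 42.2% of pairs for Casp8, 41.4% for Casp12, 56.2% for Htra2 and 64.1% for Lmnb1. From the cells' medians the direction turned for Htra2 (2.65), Lmnb1 (2.90) and Casp8 (0.06).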

How the data were processed

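A single sheet of estimated counts was deposited, with genes as rows and cells as columns. Of its nonzero entries 32.3% were not whole within 1e-06. The submitters' processing notes name Partek, Bowtie2, HISAT2 and DESeq2 and the build mm10, without roles. The counting step and annotation are not given in the sources used here. A SMART-seq kit was used for the libraries, per the labels, and all cells carry the same batch label. All 61 columns were matched by name. Spreadsheet dates replaced the symbols of 22 rows (0.144% of counts), which were kept in totals and never named.

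Counts were rounded and summed over the cells of a group. Group CPM ratios have 95% conditional binomial (Clopper-Pearson) intervals, shares of cells exact binomial ones, and a sum under 3 counts was set to 3. The ratio intervals cover counting error only, and PCR reads without molecular identifiers are not independent molecules. The intervals on shares of cells treat cells as independent draws, although no cell is tied to an animal. The ratios of group sums and their intervals were tested on simulated counts with counting error only and no other variation between cells. That could not show how they hold for cells as uneven as these. Genes were named by list or, for the pathway list, past a 2-fold difference with at least 5 CPM in either group (Birc5 in oocytes was an exception, named after its value was seen), and the members and lists were chosen with earlier results of these data known. Some genes of the pathway list are counted but not reported here by name. Correlations are descriptions. Libraries are single cells, so no doublet caller was run. Alternatives were another way of combining cells, edgeR TMM and DESeq2 size factors, other filters (none, 20 CPM), cells chosen by markers, and leaving out each cell. Those on stroma and on blood markers were added after seeing the data. No share of all genes was counted under any alternative. Transcript lengths came from GENCODE M21 and promoters from RefSeq. Python 3.11.15, numpy 2.4.6, pandas 2.3.3, scipy 1.17.1, matplotlib 3.10.9, R 4.3.3, edgeR 4.0.16 and DESeq2 1.42.0 were used.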

Additional observations from a re-analysis of the deposited data

Results flagged for a closer look

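Casp2, Casp9 and Cycs had log2 ratios of doxorubicin over control on opposite sides of 0 in the 2 cell types, outside their counting intervals and when any 1 cell was left out. Casp2 stood at 0.24 in oocytes and -1.32 in granulosa cells, and its value in granulosa cells was -0.11 where granulosa markers prevailed. Casp9 stood at -0.14 in oocytes and 1.82 in granulosa cells, and its value in oocytes was 0.08 among those low in granulosa markers. Cycs stood at 0.49 in oocytes and -0.40 in granulosa cells, and its value in oocytes was 0.12 among those low in granulosa and stroma markers. Counting intervals left out 0 for 89.3% of all genes in oocytes and for 96.3% in granulosa cells. The share of all genes with ratios on opposite sides of 0 was not counted. With 1 sample per group the difference between the cell types was not tested.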

How the results depend on the processing

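No paired analysis was possible because each group is 1 sample and the values come from no test, so the shared cell numbers of the labels were not used as a block. In oocytes the median log2 ratio of the 7 genes, 0.49, was 0.36 from the cells' medians, 0.57 among oocytes low in granulosa markers and 0.61 where stroma markers were low too, and 0.34 to 0.54 over leaving out 1 cell. The 2 genes past 2-fold became 1 from the cells' medians, where Casp6 was at 0.98, and 1 of 4 at a filter of 20 CPM, and stayed 2 over leaving out 1 cell. In granulosa cells the median, 0.14, was 0.08 for equal-weight means, -0.05 from the cells' medians, 0.18 at 20 CPM and -0.11 where granulosa markers prevailed, and 0.00 to 0.25 over leaving out 1 cell. The 4 genes past 2-fold became 3 of 6 at 20 CPM, 2 where granulosa markers prevailed and 3 or 4 over leaving out 1 cell. Between the control cell types the median, -1.38, was -0.20 from the cells' medians, -1.32 with DESeq2 size factors, -0.93 at 20 CPM, -1.45 among cells whose own markers prevailed and -1.42 with oocytes low in granulosa and stroma markers. It was -1.49 to -0.56 over leaving out 1 cell. From the cells' medians the 7 genes split into 2 higher and 2 lower, against 0 and 4. No share of all genes was counted for this or the other settings of this section. The 4 genes past 2-fold became 2 at 20 CPM and 3 to 5 over leaving out 1 cell, and Apaf1 ran from -2.15 to 0.76. Among genes past 2-fold over all cells, directions turned for Bok in oocytes (-1.64, low granulosa and stroma markers) and for Endog (-0.73) and Xaf1 (-0.26) in granulosa cells whose markers prevailed. Between the control cell types they turned for Casp8 (0.06), Htra2 (2.65) and Lmnb1 (2.90) from the cells' medians. Genes under 2-fold turned too, among them Casp9 in oocytes, Casp6 in granulosa cells and Casp2 between the control cell types, with values given above. The fewer genes at 20 CPM and fewer cells kept follow from those settings, and other causes were not tested. Ratios to Pidd1 in control granulosa cells have no equal-weight value, since it had 0 reads there. Apaf1 and Xiap rest on the fewest reads, 487 and 969 over all control oocytes.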
